A study of Oryctolagus cuniculus with 12 samples.

Results

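Solute carriers are membrane proteins that move nutrients, ions, metals, hormones and metabolites across the plasma membrane and the membranes of organelles. The 198 genes described here are those of the 14621 genes in the table whose symbols follow the family pattern SLC, number, A, number, or SLCO and a number, without SLC4A1, the anion exchanger of red blood cells. 195 of them encode transporters, while SLC4A1AP, SLC7A6OS and SLC9A3R1 carry names that only refer to a neighbouring or bound carrier. They were sorted by main substrate into amino acids (33 genes), sodium, potassium, calcium, chloride and bicarbonate (31), mitochondrial carriers (26), zinc (16), lactate and other carboxylates (11), organic anions (10), glucose and other sugars (7), sulfate (3), phosphate (2) and smaller classes. RNA had been sequenced from the temporomandibular joint, the jaw joint, of wild-type rabbits. The 12 libraries formed 4 groups of 3 that the labels named: superficial zone cells and condylar cartilage cells, each from controls and from joints with osteoarthritis (OA) induced by surgery, in which a hole was punched through the joint disc and the cut piece removed. The labels did not say whether control joints were opened, how long after surgery tissue was taken, or whether the zones came from the same animals, and they tied no replicate to an animal. P-values therefore measure only the spread between these samples, which may be partly technical.

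Cartilage as such has no blood vessels, so its cells take glucose, amino acids, sulfate and metals from fluid that diffuses through the matrix. The samples named cartilage here also held RNA of endothelial markers, as given below. Sulfate imported into chondrocytes is attached to the sugar chains of proteoglycans, and phosphate taken up by mineralising cells enters hydroxyapatite. Zinc carriers set the zinc available to matrix proteases and transcription factors, and organic anion carriers move prostaglandins, bile acids and thyroid hormones.

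Library totals ran from 7326255 to 16769536 estimated counts. OA superficial libraries 2 and 3, and OA cartilage libraries 1 and 2, were so alike (biological coefficients of variation of 0.0421 and 0.0598, where all others within groups ranged from 0.219 to 0.628) that each pair was summed and counted as 1 sample, which left 3 control and 2 OA samples in each zone. A pair of libraries stood apart from their groups. OA superficial 1 held 51233 CPM of COL2A1, the cartilage collagen, against 2511 and 2583 CPM in the other OA superficial libraries. Control cartilage 3 held 935 CPM of COL2A1 against 42754 and 56682 CPM in the other control cartilage libraries. Skeletal muscle genes, 9 of a list of 12 being in the table, summed to 15.5, 5.42 and 2677 CPM in control cartilage and 314, 1625 and 1618 CPM in the OA superficial zone. Results are given with and without the pair of libraries that stood apart where their removal changed a call or a direction. None of 11 cartilage markers differed between the zones in either state, whereas 4 of 9 superficial zone markers were lower in control cartilage and 3 of 9 in OA cartilage, among them PRG4, the lubricin gene (log2 fold change -2.9 ± 0.42 in controls and -1.97 ± 0.49 in OA joints, edgeR adjusted p = 0.00228 and 0.0411). Without the pair, 9 of the 11 cartilage markers were higher in control cartilage and 5 in OA cartilage than in the superficial zone of the same state, and 4 were lower in OA than in control cartilage. COL2A1, by which the pair was described above, is among these cartilage markers. Leaving the pair out therefore raises such marker differences in part by construction. The same holds for carriers that were low in control cartilage 3 or high in OA superficial 1, as COL2A1 was. Among those described below are SLC2A1, SLC1A5, SLC16A3, SLC26A2, SLC8A3 and SLC44A2. Their values without the pair are no independent evidence of a difference. Endothelial markers summed to 469, 311 and 508 CPM in control cartilage and 206, 186 and 191 CPM in the control superficial zone. Of 8 tested, 4 were higher in control cartilage. In OA joints they summed to 286, 299 and 264 CPM in cartilage and 312, 389 and 372 CPM in the superficial zone. There 1 was lower in cartilage and 0 were higher. The part of endothelial cells in the carrier values was not tested. In bulk tissue such as this, fewer cells of a type and less RNA per cell cannot be told apart.

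Of the 198 genes, 193 had enough counts to be tested, and SLC22A2, SLC23A1, SLC25A47, SLC26A4 and SLC37A1 did not. Levels spanned a wide range: 147 genes reached 1 TPM, a transcript level corrected for length, in all 12 libraries, 65 reached 10 TPM in all 12, 2 stayed under 1 TPM in all 12, and 17 had a count of 0 in at least 1 library. TPM allows genes to be ordered within a group. SLC43A3, a carrier of purine bases, led both superficial groups at 692 ± 311 TPM in controls (SD, n = 3) and 224 ± 48.5 TPM in OA joints (n = 2). SLC4A2, an exchanger of chloride for bicarbonate, followed it there at 168 ± 14.4 and 163 ± 79.6 TPM, so that the means of these genes lay apart by more than their SDs in controls and not in OA joints. SLC44A2, a choline carrier, led both cartilage groups at 470.2 ± 353 and 303 ± 34 TPM, ahead of SLC43A3 at 327 ± 113 and 219 ± 25.8 TPM and SLC8A3, a sodium and calcium exchanger, at 323 ± 147 and 223 ± 45.9 TPM. In control cartilage the SDs of these 3 genes overlapped, and in OA cartilage SLC44A2 stood just above the others by more than the SDs. SLC13A5, the citrate importer, ranked 5 in control cartilage at 254 ± 23.5 TPM and stood at 18.9 ± 14.3 TPM in the control superficial zone. Levels in CPM, which are counts scaled to a common library size by TMM, compare a gene with itself between samples. Log2 fold changes are given with their SE, and every adjusted p comes from edgeR over all 14438 genes tested, with 0.05 as threshold.

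More solute carriers passed the test between zones than between OA and control. In control joints, 13 solute carrier genes were higher and 7 lower in cartilage than in the superficial zone, 10.4% of the 193, where the share over all genes was 7.49% (3.22% higher and 4.27% lower). In OA joints, 9 were higher and 6 lower in cartilage, 7.77% of the 193 beside 6.48% of all genes (2.38% higher and 4.1% lower). OA cartilage differed from control cartilage in 2 genes, both higher, or 1.04% beside 0.866% of all genes (0.817% higher and 0.0485% lower). The OA superficial zone differed from its control in 0, beside 0.0208% of all genes. At an unadjusted p under 0.05, 31.6% of solute carriers differed between control zones (18.6% of all genes), 30.6% between OA zones (27.5%), 15% between OA and control cartilage (9.25%) and 6.74% between OA and control superficial zone (11.1%). In this fit the solute carrier share was above that of all genes in each of these comparisons except the OA superficial zone. With 2 calls in OA cartilage and shares close together between OA zones, this describes the fit only. Counts and shares of all genes both moved in the refits below, so the order was not shown to hold. Median log2 fold changes over the 193 were 0.14 between control zones and -0.10 between OA zones, beside 0.02 and 0.01 over all genes, and -0.18 for OA against control in cartilage and 0.07 in the superficial zone, beside -0.03 and 0.05.

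These counts depended on how samples were scaled and on single libraries. Each was refitted under 21 alternatives, which left out each library in turn, changed the scaling, the filter, the tool or the design, or left out both libraries that stood apart. In what follows the share of all genes past the test in the same fit stands in brackets after each count. Scaling by library totals alone moved the median of all genes to -0.25 between control zones and 0.25 between OA zones, and the control count became 23 (8.8%), with 9 higher and 14 lower in cartilage. The control zone count was 6 (3.4%) without control superficial 2, 10 (4.99%) without control superficial 3, 9 (3.59%) without control cartilage 1 and 42 (12.4%) without OA superficial 1. The OA zone count was 9 (3.66%), 6 (3.21%) and 8 (3.55%) without control superficial 1, 2 and 3 and 9 (3.79%) and 24 (9.71%) without control cartilage 1 and 3. It was 6 (5.23%) without OA superficial 1 and 3 (0.714%) without OA cartilage 3. In OA cartilage the 2 calls became 0 (0.0%) and 0 (0.0418%) without control cartilage 1 and 2, 1 (0.255%) and 1 (0.343%) without control superficial 1 and 2, and 4 (1.53%) without OA superficial 1. Without both libraries that stood apart the counts were 54 (16.8%) between control zones, 34 (12%) between OA zones, 15 (4.57%) in OA cartilage and 3 (1.95%) in the OA superficial zone. With the 12 libraries entered separately, 28 (9.86%) genes passed between control zones and 45 (19.8%) between OA zones, and with DESeq2 36 (10.9%) and 32 (14.6%). The tool limma-voom gave 68 (23.7%) between control zones, 1 (0.928%) between OA zones and 28 (10.7%) in OA cartilage. Fits of only the groups compared gave 36 (12.4%), 0 (0.0%) and 0 (0.0%), and a replicate block over 12 libraries gave 27 (8.98%), 41 (16.8%) and 6 (2.23%), in the same order. The 54 included 19 of the 20 genes called with all samples, the 34 included 11 of the 15, and the 15 included both. With those libraries gone, 1 sample stood for the OA superficial zone, and its spread was taken to be like that of the other groups.

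The zone comparisons in control and OA joints used separate libraries and pointed mostly the same way. 134 of the 193 genes, or 69.4%, had the same sign in both states, close to the 68.4% found over all genes. Across these genes the log2 fold changes in control and OA joints had a Pearson correlation of 0.63 and a Spearman correlation of 0.53 (0.44 and 0.50 over all genes), a description only, since the genes share libraries and are not independent. A set of 7 genes passed in both states, among them SLC9A7, SLC26A7, SLC30A1 and SLC36A3, which were higher in cartilage, and SLC4A3 and SLC6A2, which were lower. These 7 made up 35% of the genes called in controls and 46.7% of those called in OA joints. Both sets of calls came from 1 fit with a shared estimate of the spread, so they were not independent. Fitted with only the groups compared, 0 calls remained between OA zones. Of the genes called in a single state, SLC25A21 and SLC25A37, both mitochondrial carriers, were the exceptions whose signs were opposite in the other state.

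**Figure D1:**
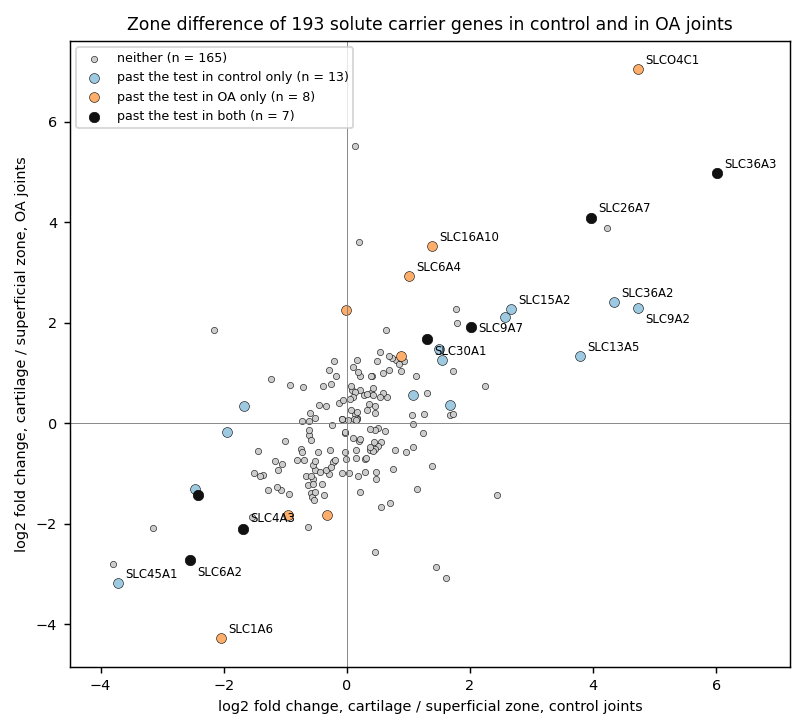
Each point is 1 of the 193 tested solute carrier genes, placed by its log2 fold change of cartilage against superficial zone in control joints (x axis) and in OA joints (y axis), with colour for the state in which it passed the test. The 7 genes called in both states lie in the lower left and upper right, with SLC6A2 low and SLC26A7 and SLC36A3 high on both axes. The places of SLC36A3 and SLCO4C1 rest on groups with 1 or 2 counts.

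Sorted by substrate, the calls were spread over most classes. Those between control zones were in amino acids (3 higher, 0 lower of 33), ions (3 and 2 of 30 tested), zinc (2 and 0 of 16), organic anions (1 and 1 of 10), carboxylates (1 and 1 of 11), metals other than zinc (1 and 0 of 10), organic cations (1 and 0 of 7), neurotransmitters and osmolytes (0 and 1 of 6), mitochondrial carriers (0 and 1 of 25) and other carriers (1 and 1 of 13). Between OA zones they were amino acids (2 and 1), ions (2 and 1), zinc (1 and 0), organic anions (1 and 1), carboxylates (0 and 1), other metals (1 and 0), neurotransmitters and osmolytes (1 and 1), mitochondrial carriers (1 and 0) and other carriers (0 and 1). The sugar, phosphate and sulfate classes had 0 calls with all samples in every comparison, OA against control included. SLC45A1, a putative sugar carrier called between control zones, was sorted with the other carriers.

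**Figure D2:**
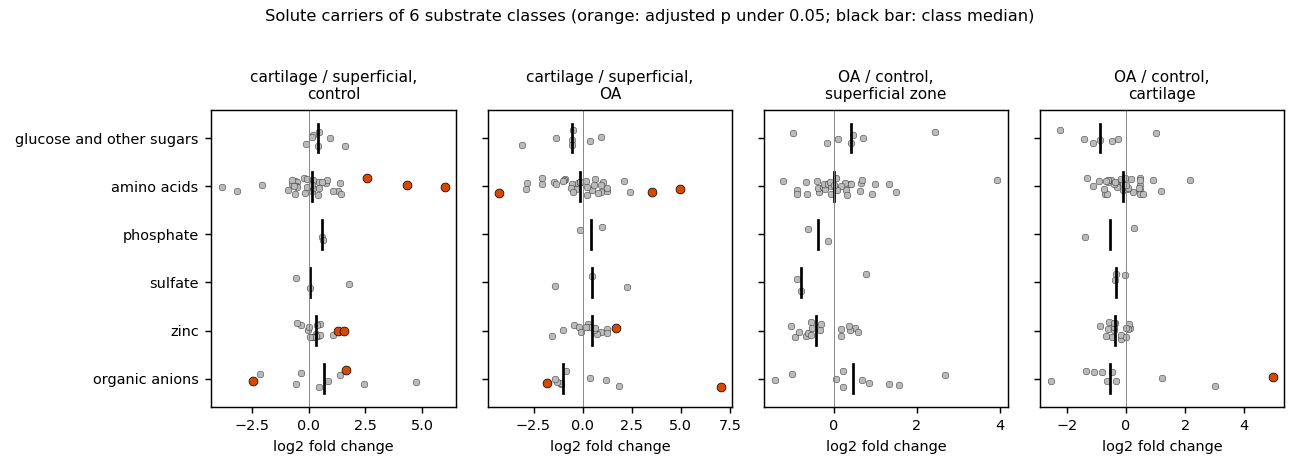
Points are the log2 fold changes of single genes in 6 substrate classes and 4 comparisons, orange where the gene passed the test, and black bars are the class medians. The zinc class has medians of 0.32 and 0.45 between zones (control and OA) and of -0.42 and -0.39 between OA and control (superficial zone and cartilage), and the sugar class has 0 orange points.

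Glucose enters cells through the GLUT carriers of the SLC2 family, and chondrocytes live largely by glycolysis. Of the 7 carriers tested in the sugar class, which leaves out the putative sugar carrier SLC45A1, 0 passed in any comparison with all samples. SLC2A1 (ENSOCUG00000005924), the basal glucose importer GLUT1 and the sugar carrier of highest TPM, stood at 78, 89.5 and 67.8 CPM in the control and 119, 50.6 and 50.1 CPM in the OA superficial zone. In cartilage SLC2A1 stood at 189, 244 and 24.1 CPM in controls and 41.2, 39.7 and 73.9 CPM in OA joints. Control cartilage 1 and 2 were the highest of the 12 libraries and control cartilage 3 the lowest, so that control cartilage spanned the range of all other groups. With all samples the cartilage values against the superficial zone gave a log2 fold change of 0.96 ± 0.64 in controls (adjusted p = 0.513), and OA against control cartilage gave -1.42 ± 0.74 (adjusted p = 0.629). Without the pair of libraries that stood apart, SLC2A1 was higher in control cartilage than in the control superficial zone (1.48, adjusted p = 0.00297) and lower in OA than in control cartilage (-1.93, adjusted p = 0.00579), while its difference between OA zones turned from -0.56 to 0.22, adjusted p = 0.815, which did not pass. SLC16A3, the lactate exporter of glycolytic cells, had the same low library, with 60.1, 88.4 and 6.84 CPM in control cartilage and 17.2, 16.3 and 27.2 CPM in OA cartilage, and it was among the 8 genes lower in OA cartilage when both libraries were left out.

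SLC2A4, the insulin-responsive carrier GLUT4 of muscle and fat, was highest where muscle genes were highest. It stood at 2.0, 1.38 and 1.68 CPM in the control and 5.24, 12.2 and 13.6 CPM in the OA superficial zone. In cartilage SLC2A4 stood at 0.304, 0.22 and 14.8 CPM in controls and 1.45, 1.55 and 0.61 CPM in OA joints. The high libraries were control cartilage 3 and OA superficial 2 and 3, the same that held the highest summed muscle markers. Its zone difference in controls was 1.6 ± 1.16 (adjusted p = 0.562) and became -2.7, adjusted p = 0.0175 without the libraries that stood apart. In OA joints it was -3.07 ± 1.44 (adjusted p = 0.192) and became -3.51, adjusted p = 0.00331. In that fit 1 of 9 skeletal muscle markers was lower in control cartilage and 8 of 9 in OA cartilage, and 5 were higher in the OA than in the control superficial zone. Of a list of 8 adipocyte markers, 4 were in the table. In cartilage they summed to 36.5, 31.3 and 122 CPM in controls and 137, 129 and 82.9 CPM in OA joints, the latter with low SLC2A4. In the superficial zone they summed to 72.7, 69.5 and 64.1 CPM in controls and 129, 160 and 157 CPM in OA joints. The part of muscle or fat in these values was not tested. SLC2A10, the carrier GLUT10 whose loss weakens arterial walls in people, read 71.9, 62.5 and 42.5 CPM in the control and 76, 30.3 and 31.1 CPM in the OA superficial zone. In cartilage SLC2A10 stood at 81.8, 71.8 and 88.5 CPM in controls and 34.6, 32.8 and 41.2 CPM in OA joints. OA cartilage lay below control cartilage in all libraries, at 37.5 ± 5.33 against 80.7 ± 8.38 CPM (SD, n = 2 and n = 3), without passing the test. SLC2A12, a carrier related to GLUT4, stayed between 3.45 and 12.8 CPM. The median over the 7 sugar carriers was 0.40 between control zones and -0.88 for OA against control cartilage, with 6 of 7 negative, but -0.16 without the libraries that stood apart. None of 19 tested genes of glucose use, which held glycolytic enzymes and regulators of glucose use, passed the test in any comparison with all samples. With both libraries that stood apart left out, UGDH, which makes the UDP-glucuronate of proteoglycan chains, and PFKFB3, a regulator of glycolysis, were higher in control cartilage than in the control superficial zone, and UGDH was lower in OA than in control cartilage.

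**Figure D3:**
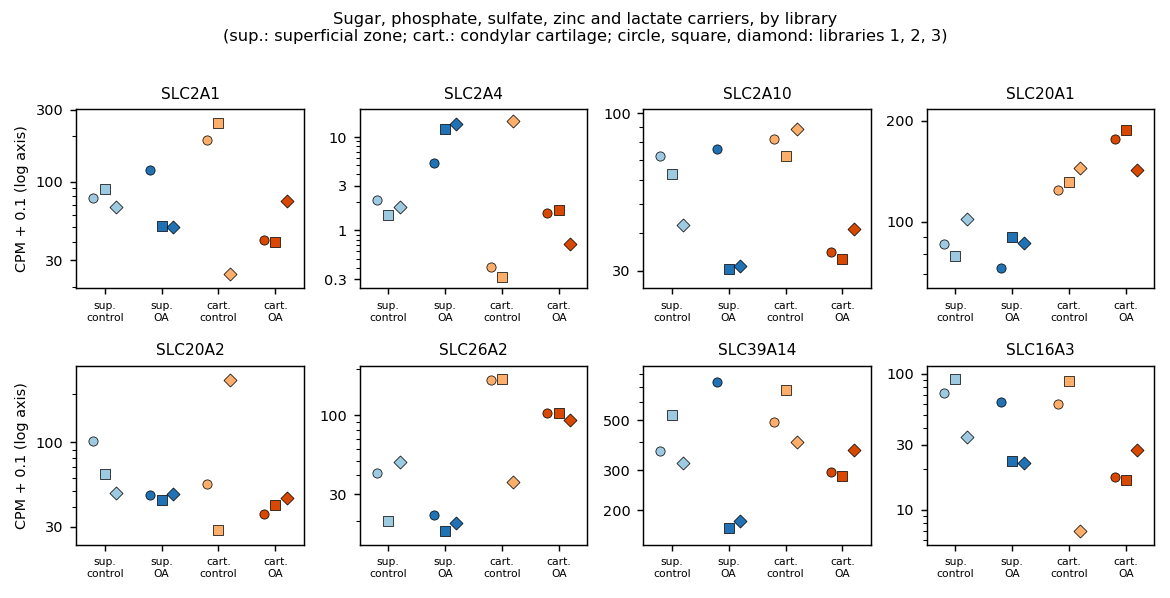
CPM of 8 carriers in each of the 12 libraries, by zone and state, on a log axis (CPM + 0.1), with circles, squares and diamonds for libraries 1, 2 and 3. SLC2A1 and SLC16A3 are lowest in control cartilage 3, SLC2A4 is high in that library and in OA superficial 2 and 3, and SLC20A1 is higher in all cartilage libraries than in all superficial ones.

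Amino acids feed collagen synthesis, which consumes glycine and proline. Of 33 amino acid carriers, SLC36A2, SLC36A3 and SLC1A3 were higher in control cartilage than in the control superficial zone, SLC16A10 and SLC36A3 were higher and SLC1A6 lower in OA cartilage than in the OA superficial zone, and 0 passed in either comparison of OA with control. SLC36A2 (ENSOCUG00000015850) carries glycine, proline and alanine into the cell together with protons. It stood at 13.5, 3.13 and 4.09 CPM in the control and 22.9, 4.32 and 5.82 CPM in the OA superficial zone. In cartilage SLC36A2 stood at 118, 77.7 and 222 CPM in controls and 68.3, 68.7 and 77.6 CPM in OA joints. Each cartilage library was above each superficial library, with control cartilage 3 highest. The difference was 4.34 ± 0.72 in controls (adjusted p = 0.00411), which held in 21 of 21 alternative fits, and 2.41 ± 0.81 in OA joints, where it did not pass (adjusted p = 0.0902) unless the libraries that stood apart were left out (3.87, adjusted p = 0.00822). Its close relative SLC36A3 was scarce, with 64 counts in control cartilage against 1 in the control superficial zone and 96 against 2 in OA joints. These gave ratios of 69.4 (95% counting interval 12.02 to 2784) and 40.6 (10.9 to 340), with adjusted p = 0.0076 and 0.038. The control call held in 19 of 21 alternative fits and was lost without control superficial 2 (adjusted p = 0.0504) and with only the groups compared (where it was not tested). The OA call held in 14 of 21 alternative fits and was lost without control superficial 1, 2 or 3, OA superficial 1 or OA cartilage 3 (adjusted p = 0.0558 to 0.14) and with limma-voom or with only the groups compared (0.0647 to 0.47). SLC36A2 and SLC36A3 are near relatives, and reads shared between them could not be told apart here.

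Carriers of glutamate were called in opposite directions, 1 in each state. SLC1A3, the high-affinity glutamate importer best known from glia, read 3.12, 3.74 and 2.83 CPM in the control and 3.45, 2.1 and 2.48 CPM in the OA superficial zone. In cartilage SLC1A3 stood at 17.8, 5.35 and 35 CPM in controls and 12.1, 15 and 10.7 CPM in OA joints. All cartilage libraries were above all superficial libraries, and control cartilage spread widest. SLC1A3 was higher in control cartilage (log2 fold change 2.57 ± 0.57, adjusted p = 0.0174), a call that held in 17 of 21 alternative fits and was lost without control superficial 1, 2 or 3 or control cartilage 1 (adjusted p = 0.0508 to 0.080). In OA joints the value was 2.1 ± 0.69 (adjusted p = 0.0844), which passed without the libraries that stood apart (2.44, adjusted p = 0.0316). SLC1A6, a glutamate importer of cerebellar neurons, was at 2.89, 4.28 and 3.36 CPM in the control and 8.97, 9.75 and 12.1 CPM in the OA superficial zone. In cartilage SLC1A6 stood at 0.152, 0.366 and 2.02 CPM in controls and 0.558, 0.941 and 0.203 CPM in OA joints. OA superficial libraries were the highest and did not overlap any other group, and SLC1A6 was lower in OA cartilage than in the OA superficial zone (log2 fold change -4.28 ± 0.93, adjusted p = 0.0242). The call held in 18 of 21 alternative fits and was lost without control superficial 2 or OA cartilage 3 (adjusted p = 0.0502 to 0.174) and with only the groups compared (0.0576). In controls its value was -2.04 ± 0.74 (adjusted p = 0.144), which passed without the libraries that stood apart (-3.57, adjusted p = 0.00407).

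SLC16A10 (ENSOCUG00000000098), the carrier of tyrosine, tryptophan and phenylalanine, stood at 5.79, 5.35 and 4.51 CPM in the control and 7.45, 3.79 and 2.91 CPM in the OA superficial zone. In cartilage SLC16A10 stood at 15.2, 9.37 and 16.4 CPM in controls and 91, 85 and 32.8 CPM in OA joints. OA cartilage was the highest group, without overlap, and within it the near-duplicate libraries 1 and 2 were above library 3. In OA joints cartilage was above the superficial zone (log2 fold change 3.52 ± 0.57, adjusted p = 0.00928), a call that held in 19 of 21 alternative fits and was lost with limma-voom or with only the groups compared (0.0576 to 0.142). OA against control cartilage gave 2.15 ± 0.46 (adjusted p = 0.0621), short of the threshold, and passed without the libraries that stood apart (2.31, adjusted p = 0.0141). ASNS, asparagine synthetase, a gene induced when amino acids run short, was likewise highest in OA cartilage, with 34, 36.6 and 16.8 CPM in OA cartilage and 5.02, 5.57 and 5.5 CPM in control cartilage. Libraries 1 and 2 of OA cartilage were above library 3 for ASNS too, as they were for the erythroid markers described below. The part of blood cells in these values was not tested. ASNS was the 1 gene of 14 tested in the amino acid response list that passed between OA zones (log2 fold change 3.45 ± 0.58, adjusted p = 0.0105). PSAT1, of serine synthesis, was the 1 that passed between control zones, lower in cartilage (log2 fold change -2.06 ± 0.48, adjusted p = 0.0229). None of the 14 passed in OA against control with all samples. When both libraries were left out, ASNS was higher in OA than in control cartilage (2.29, adjusted p = 0.0084), and ATF3, a stress-induced transcription factor, was higher in the OA than in the control superficial zone.

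Other abundant amino acid carriers did not pass in any comparison with all samples. SLC38A2, which imports glutamine, alanine and proline and led the class by TPM, stood at 231, 185 and 194 CPM in the control and 225, 165 and 167 CPM in the OA superficial zone. In cartilage SLC38A2 stood at 290.4, 329.9 and 215 CPM in controls and 228, 218 and 227 CPM in OA joints, with OA and control libraries overlapping in both zones. SLC1A5, the glutamine importer ASCT2, read 62.5, 56.5 and 56.8 CPM in the control and 131, 27.7 and 25.8 CPM in the OA superficial zone. In cartilage SLC1A5 stood at 140.5, 193 and 38.5 CPM in controls and 54.5, 53.9 and 59 CPM in OA joints, again with control cartilage 3 low and OA superficial 1 high. Without those libraries it was higher in control cartilage than in the control superficial zone (1.52, adjusted p = 0.000598) and lower in OA than in control cartilage (-1.57, adjusted p = 0.00465), while with all samples the adjusted p was 0.384 and 0.699. SLC3A2, the heavy chain that several amino acid carriers need to reach the membrane, was at 55.7, 56 and 42.7 CPM in the control and 100.3, 64.1 and 61.7 CPM in the OA superficial zone. In cartilage SLC3A2 stood at 31.8, 43.5 and 32.5 CPM in controls and 40.8, 42.7 and 43.2 CPM in OA joints. The median over the class was 0.14 between control zones and -0.13 between OA zones, with 17 and 16 of 33 genes positive.

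The phosphate class held SLC20A1 and SLC20A2 (PiT-1 and PiT-2), which import phosphate with sodium, and neither passed the test. XPR1, a phosphate exporter outside the symbol pattern, is described below. SLC20A1, the higher of them by TPM, was at 85.5, 79.2 and 102 CPM in the control and 73, 89.99 and 86.4 CPM in the OA superficial zone. In cartilage SLC20A1 stood at 124, 131 and 145 CPM in controls and 176, 187 and 143 CPM in OA joints. All 6 cartilage libraries were above all 6 superficial ones, by 0.59 ± 0.25 in controls (adjusted p = 0.226) and 1.01 ± 0.31 in OA joints (adjusted p = 0.0721). SLC20A2 was at 103, 63.6 and 48.7 CPM in the control and 47.1, 43.9 and 47.5 CPM in the OA superficial zone. In cartilage SLC20A2 stood at 54.9, 28.4 and 245 CPM in controls and 35.7, 41 and 45.4 CPM in OA joints, with control cartilage 3 the highest and control cartilage 2 the lowest library. The class median between control zones, 0.60, was -0.12 without the libraries that stood apart.

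Genes that handle phosphate and pyrophosphate beside these importers did differ between zones: of 7 tested, 3 were higher in control cartilage and 2 in OA cartilage. XPR1, the phosphate exporter, read 41, 43.9 and 48.1 CPM in the control and 20.6, 31.7 and 31 CPM in the OA superficial zone. In cartilage XPR1 stood at 158, 102 and 138 CPM in controls and 106, 107 and 117 CPM in OA joints, with no overlap between zones (1.58 ± 0.28 in controls and 2.1 ± 0.35 in OA joints, adjusted p = 0.00575 and 0.0097). PHEX, the osteocyte protease whose loss causes phosphate wasting, read 12.2, 8.86 and 10.6 CPM in the control and 28.6, 20.8 and 20.8 CPM in the OA superficial zone. In cartilage PHEX stood at 412, 353 and 479 CPM in controls and 261, 255 and 382 CPM in OA joints, and was also higher in cartilage in both states (5.3 ± 0.34 and 3.7 ± 0.39, adjusted p = 8.24e-05 and 0.00766). ALPL, the tissue-nonspecific alkaline phosphatase that splits pyrophosphate, was higher in control cartilage (log2 fold change 2.47 ± 0.55, adjusted p = 0.0185) and gave 0.84 ± 0.65 in OA joints (adjusted p = 0.398), or 2.35, adjusted p = 0.016 without the libraries that stood apart. In that fit PHOSPHO1, a phosphatase of mineralising cells, was also higher in control cartilage. PHEX and ALPL also stand in the list of 9 osteoblast and osteocyte markers, of which 7 were higher in control cartilage and 4 in OA cartilage (7 and 9 without the libraries that stood apart), with summed levels of 1647, 1365 and 1641 CPM in the control superficial zone, 1552, 847 and 852 in the OA superficial zone, 5936, 10318 and 5263 in control cartilage and 3502, 3544 and 5214 in OA cartilage. Osteoclast markers were likewise higher in control cartilage for 4 of 6 genes, or 5 without those libraries. The part of bone cells in the carrier differences between zones was not tested.

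Chondrocytes need sulfate for chondroitin sulfate, and loss of the sulfate importer SLC26A2 causes diastrophic dysplasia in people. SLC26A2 (ENSOCUG00000013871) read 41.6, 19.9 and 49 CPM in the control and 21.9, 17.2 and 19.5 CPM in the OA superficial zone. In cartilage SLC26A2 stood at 169, 171 and 35.9 CPM in controls and 103, 103 and 92.3 CPM in OA joints. Except for control cartilage 3, which was within the range of the superficial libraries, all cartilage libraries lay at 92.3 CPM or more. The zone difference was 1.77 ± 0.52 in controls (adjusted p = 0.0666) and 2.27 ± 0.65 in OA joints (adjusted p = 0.0618), which missed the threshold in both. Without the libraries that stood apart it passed in both states (2.21, adjusted p = 0.000898 in controls and 2.44, adjusted p = 0.00907 in OA joints). SLC13A4, a sodium-coupled sulfate importer, was at 11.4, 8.71 and 10.4 CPM in the control and 8.0, 3.91 and 3.93 CPM in the OA superficial zone. In cartilage SLC13A4 stood at 9.73, 20.4 and 1.01 CPM in controls and 5.92, 4.7 and 11.3 CPM in OA joints, and SLC26A11, a further anion carrier of the sulfate family, stayed between 7.69 and 32.3 CPM. Of 14 sulfation genes tested, CHST13, a chondroitin sulfotransferase, was higher in control cartilage (log2 fold change 3.34 ± 0.78, adjusted p = 0.0225) and SULF2, which removes sulfate from heparan sulfate, was lower in OA cartilage than in the OA superficial zone (log2 fold change -2.07 ± 0.44, adjusted p = 0.0222). None of the 14 passed in OA against control with all samples. In the fit without both libraries, 6 of the 14 were higher and 1 lower in control cartilage, and 4 were higher and 1 lower in OA cartilage, than in the superficial zone. Among the higher genes in both states were PAPSS2, which makes the sulfate donor, and the sulfotransferases CHST3 and CHST15. In the same fit BPNT2, a phosphatase of the sulfation pathway, was lower in OA than in control cartilage.

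Zinc carriers had mostly positive zone values, with 13 of 16 positive between control zones and 11 of 16 between OA zones (medians 0.32 and 0.45). In controls this count depended on scaling: library totals alone gave a median of 0.06 with 9 of 16 positive there, and 0.65 with 14 of 16 positive in OA joints. SLC30A1 (ENSOCUG00000012398), which exports zinc from the cell and is induced by zinc, read 5.23, 4.58 and 5.45 CPM in the control and 2.35, 4.67 and 4.31 CPM in the OA superficial zone. In cartilage SLC30A1 stood at 14.9, 9.3 and 13.7 CPM in controls and 12.1, 10.8 and 11 CPM in OA joints. It was higher in cartilage in both states (1.31 ± 0.35 in controls and 1.67 ± 0.43 in OA joints, adjusted p = 0.0433 and 0.0426), without overlap. The control call held in 14 of 21 alternative fits and was lost without control superficial 1, 2 or 3, control cartilage 1 or 3 or OA cartilage 3 (adjusted p = 0.0899 to 0.203) and with library totals alone (0.175). In OA joints the call held in 11 of 21 alternative fits and was lost without control superficial 1, 2 or 3, control cartilage 1, OA superficial 1 or OA cartilage 3 (adjusted p = 0.0705 to 0.168) and with library totals alone, with limma-voom, with only the groups compared or without both libraries that stand apart (0.0559 to 0.298). SLC39A8, the zinc importer ZIP8 that in mouse chondrocytes raises matrix-degrading proteases, was at 2.67, 1.91 and 1.89 CPM in the control and 2.21, 2.98 and 3.45 CPM in the OA superficial zone. In cartilage SLC39A8 stood at 7.45, 4.17 and 7.29 CPM in controls and 9.43, 6.14 and 5.42 CPM in OA joints. It was higher in control cartilage (log2 fold change 1.54 ± 0.41, adjusted p = 0.0435) and gave 1.26 ± 0.49 in OA joints (adjusted p = 0.128). The control call of SLC39A8 held in 13 of 21 alternative fits and was lost without control superficial 1, 2 or 3, control cartilage 1 or 3 or OA cartilage 2 or 3 (adjusted p = 0.0506 to 0.19) and with library totals alone (0.119).

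The zinc carrier of highest TPM was SLC39A14, the importer ZIP14 of zinc, manganese and iron. Its levels were 364, 526 and 325 CPM in the control and 737, 167 and 179 CPM in the OA superficial zone. In cartilage SLC39A14 stood at 494, 679 and 400.3 CPM in controls and 294, 283 and 371 CPM in OA joints, and it did not pass in any comparison. OA superficial 1 was its highest library and OA superficial 2 and 3 its lowest, so the OA superficial group spanned the others. SLC39A13, ZIP13 of the secretory pathway, whose loss causes a connective tissue disorder, stood at 72.4, 82 and 74.3 CPM in control cartilage and 46.7, 44.9 and 52.8 CPM in OA cartilage, without overlap and without passing the test. SLC30A5, which loads zinc into the secretory pathway, was at 77.5, 55.3 and 50.02 CPM in the control and 19.6, 41.3 and 38.7 CPM in the OA superficial zone. In cartilage SLC30A5 stood at 86.8, 78.2 and 80.9 CPM in controls and 38.5, 37.7 and 50.9 CPM in OA joints. OA libraries lay below control libraries in both zones, and the superficial difference was -1.02 ± 0.36 (adjusted p = 0.338). Medians over the class were -0.42 for OA against control in the superficial zone and -0.39 in cartilage, with 10 and 13 of 16 genes negative and 0 called. Under library totals alone the cartilage median was -0.13, with 7 of 16 genes positive. Of a list of 8 zinc response genes, 2 were in the table and 0 passed.

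The organic anion class held calls in both directions. SLCO4C1 (ENSOCUG00000016948), a carrier of thyroid hormones, steroids and cardiac glycosides in the kidney, read 0, 0 and 0 CPM in the control and 0, 0 and 0.108 CPM in the OA superficial zone. In cartilage SLCO4C1 stood at 0.304, 0.22 and 0.112 CPM in controls and 9.77, 11.1 and 3.12 CPM in OA joints. Outside OA cartilage it stayed at or under 0.304 CPM. It rose in OA against control cartilage (log2 fold change 4.98 ± 0.83, adjusted p = 0.0314), a call that held in 16 of 21 alternative fits and was lost without control superficial 1 or 2 or control cartilage 1 or 2 (adjusted p = 0.0527 to 0.144) and with only the groups compared (0.0731). Between OA zones, 422 counts in cartilage against 2 in the superficial zone gave a ratio of 179 (95% counting interval 49.1 to 1479), with adjusted p = 0.011. That call held in 19 of 21 alternative fits and was lost with limma-voom or with only the groups compared (0.0513 to 0.355). SLCO3A1, a prostaglandin and thyroid hormone carrier, was lower in OA cartilage than in the OA superficial zone (log2 fold change -1.83 ± 0.41, adjusted p = 0.0269), at 11.4, 11.1 and 13.8 CPM against 59.3, 28.9 and 30.7 CPM. In controls its zones overlapped, at 21, 16.2 and 29.2 CPM in cartilage and 28.8, 28.3 and 25.7 CPM in the superficial zone. The OA call of SLCO3A1 held in 15 of 21 alternative fits and was lost without control superficial 2 or 3, OA superficial 1 or OA cartilage 3 (adjusted p = 0.0501 to 0.14) and with limma-voom or with only the groups compared (0.0966 to 0.146).

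SLC22A23, a family member of unknown substrate, was higher in control cartilage (log2 fold change 1.67 ± 0.33, adjusted p = 0.0103), at 22.2, 17.9 and 34.4 CPM against 7.68, 8.02 and 7.76 CPM, a call that held in 20 of 21 alternative fits and was lost without control superficial 2 (adjusted p = 0.0548). SLCO1C1, a thyroxine carrier of brain barriers, was lower in control cartilage (log2 fold change -2.47 ± 0.67, adjusted p = 0.0458), at 1.37, 3.95 and 4.04 CPM against 8.24, 26.4 and 18.1 CPM, a call that held in 14 of 21 alternative fits and was lost without control superficial 2 or 3, control cartilage 1, 2 or 3 or OA cartilage 3 (adjusted p = 0.0597 to 0.192) and with library totals alone (0.0557). SLCO2A1, which takes up prostaglandins for breakdown, stood at 35.2, 38.2 and 28.6 CPM in the control and 46.2, 34.2 and 31.9 CPM in the OA superficial zone. In cartilage SLCO2A1 stood at 53.5, 28 and 59.6 CPM in controls and 18.5, 19 and 18 CPM in OA joints. OA cartilage was lowest and did not overlap any other group, and OA against control cartilage gave -1.35 ± 0.37 (adjusted p = 0.157). Of 7 prostaglandin genes tested, PTGER2, a prostaglandin receptor, was lower in control cartilage than in the control superficial zone (log2 fold change -2.73 ± 0.72, adjusted p = 0.0416), and none passed elsewhere with all samples. The call of PTGER2 was lost without the libraries that stood apart (-2.79, adjusted p = 0.0505), and PTGER4, a further prostaglandin receptor, was higher in OA than in control cartilage. SLCO2B1, a carrier of steroid sulfates, was at 8.79, 5.81 and 7.03 CPM in the control and 36.4, 6.71 and 7.38 CPM in the OA superficial zone. In cartilage SLCO2B1 stood at 24.2, 20.1 and 11.8 CPM in controls and 11.1, 12.5 and 12 CPM in OA joints, with OA superficial 1 the highest library. The class medians of 0.66 between control zones and -0.98 between OA zones had opposite signs, and without the libraries that stood apart they were 0.70 and 0.09.

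Carriers of sodium, protons, calcium, chloride and bicarbonate also differed between zones. SLC9A7 (ENSOCUG00000004230), a sodium and proton exchanger of the Golgi, read 10.7, 8.94 and 11.7 CPM in the control and 11.5, 10.3 and 10.8 CPM in the OA superficial zone. In cartilage SLC9A7 stood at 44.7, 40.9 and 40.5 CPM in controls and 35.6, 34 and 48.5 CPM in OA joints. Each cartilage library was above each superficial library and the groups were tight. SLC9A7 was higher in cartilage in controls (log2 fold change 2.01 ± 0.27, adjusted p = 0.0017) and in OA joints (log2 fold change 1.92 ± 0.32, adjusted p = 0.0104). In controls its call held in all 21 alternative fits, as did those of SLC24A3, SLC26A7, SLC36A2 and SLC6A2, and in OA joints the call of SLC9A7 held in 18 of 21 alternative fits and was lost without OA cartilage 3 (adjusted p = 0.0843) and with limma-voom or with only the groups compared (0.115 to 0.136).

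**Figure D4:**
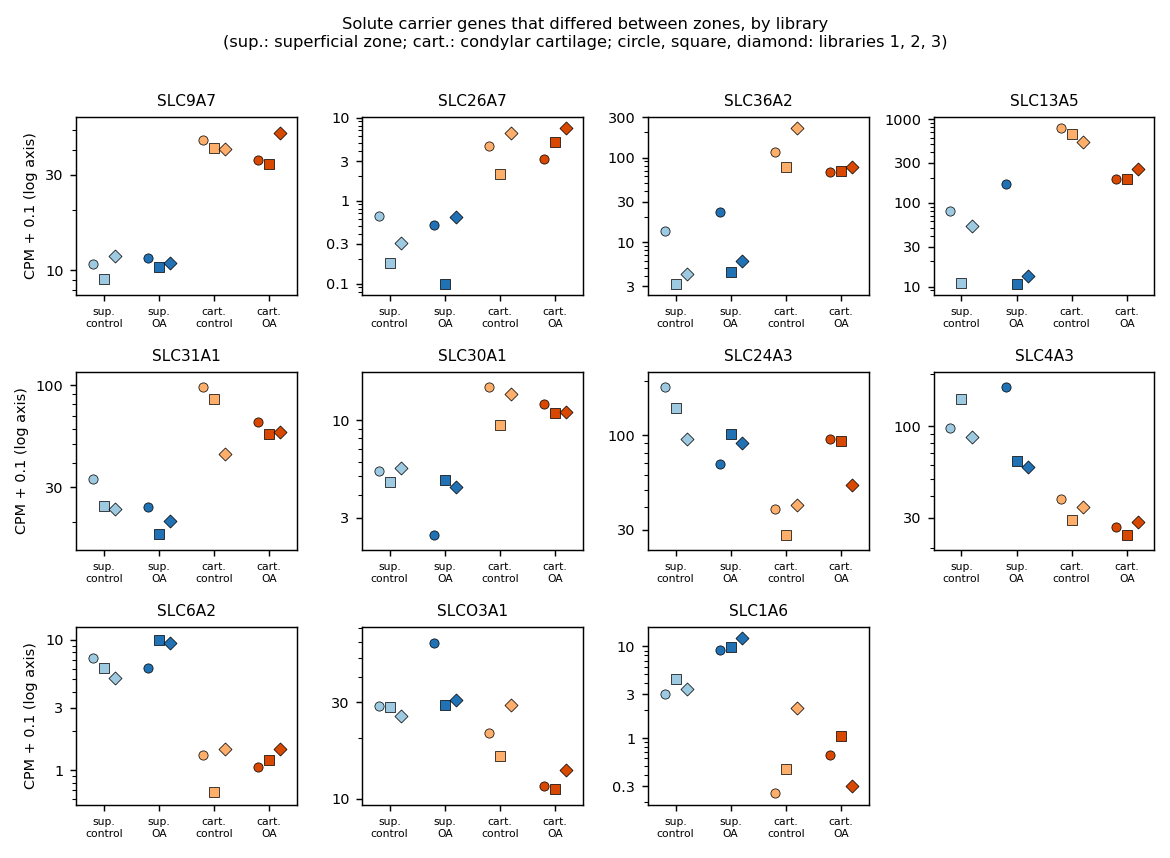
CPM of 11 carriers in each library on a log axis (CPM + 0.1), by zone and state. SLC9A7, SLC26A7, SLC36A2 and SLC30A1 are higher in all cartilage libraries than in all superficial ones, SLC4A3 and SLC6A2 are lower in all of them, and SLC24A3 is low in control cartilage but overlaps the superficial libraries in OA joints.

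SLC26A7, an anion exchanger of chloride and bicarbonate, was scarce in the superficial zone and read 0.557, 0.0764 and 0.21 CPM in the control and 0.414, 0 and 0.539 CPM in the OA superficial zone. In cartilage SLC26A7 stood at 4.41, 1.98 and 6.51 CPM in controls and 3.07, 5.04 and 7.32 CPM in OA joints. It was higher in cartilage in both states (3.97 ± 0.74 and 4.08 ± 0.87, adjusted p = 0.00765 and 0.0226). Its OA call held in 17 of 21 alternative fits and was lost without OA superficial 1 or OA cartilage 3 (adjusted p = 0.0533 to 0.128) and with limma-voom or with only the groups compared (0.0607 to 0.335). SLC4A3, an anion exchanger of heart and brain, was at 97.7, 144 and 86.4 CPM in the control and 169, 63.6 and 58.6 CPM in the OA superficial zone. In cartilage SLC4A3 stood at 38.5, 28.9 and 34.5 CPM in controls and 26.6, 23.7 and 28.1 CPM in OA joints. It was lower in cartilage in both states (-1.69 ± 0.38 and -2.11 ± 0.47, adjusted p = 0.0183 and 0.0257). Its control call held in 18 of 21 alternative fits and was lost without control superficial 2 or control cartilage 1 or 2 (adjusted p = 0.0673 to 0.0833). Its call in OA joints held in 17 of 21 alternative fits and was lost without OA superficial 1 or OA cartilage 3 (adjusted p = 0.0734 to 0.151) and with limma-voom or with only the groups compared (0.117 to 0.125). SLC24A3, which exports calcium with potassium in exchange for sodium, read 184, 140.4 and 94.6 CPM in the control and 69.6, 101 and 90.9 CPM in the OA superficial zone. In cartilage SLC24A3 stood at 38.9, 28.1 and 41.2 CPM in controls and 95.3, 92.2 and 52.9 CPM in OA joints. It was lower in control cartilage (log2 fold change -1.95 ± 0.35, adjusted p = 0.00595), while the OA libraries of the zones overlapped, and the difference of the OA effect between zones was 1.78 ± 0.53 (adjusted p = 0.435), not past the test. SLC9A2, a sodium and proton exchanger of epithelia, was higher in control cartilage (log2 fold change 4.72 ± 0.99, adjusted p = 0.0138) at 21.3, 4.76 and 71.7 CPM against 2.45, 0.306 and 1.05 CPM, with control cartilage 3 highest. This call held in 19 of 21 alternative fits and was lost without control superficial 2 or 3 (adjusted p = 0.0613 to 0.0693).

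SLC8A3, the sodium and calcium exchanger among the leading genes by TPM, read 289, 175 and 251 CPM in the control and 409, 103 and 98.4 CPM in the OA superficial zone. In cartilage SLC8A3 stood at 911, 1068 and 375 CPM in controls and 429, 397 and 631 CPM in OA joints. Cartilage libraries were above superficial ones, except that OA superficial 1 was above control cartilage 3 and OA cartilage 2. The control difference of 1.72 (adjusted p = 0.0799) passed without those libraries (2.06, adjusted p = 0.000648), as did that in OA joints (2.41, adjusted p = 0.00557). SLC44A2, with the same high and low libraries, read 232, 145 and 245 CPM in the control and 651, 109 and 118 CPM in the OA superficial zone. In cartilage SLC44A2 stood at 843, 1084 and 134 CPM in controls and 383, 376 and 488 CPM in OA joints. Its zone difference did not pass in controls (adjusted p = 0.214) or OA joints (adjusted p = 0.90) with all samples and passed in both without those libraries (2.22, adjusted p = 0.000412 in controls and 1.97, adjusted p = 0.0122 in OA joints). SLC43A3 was at 845, 609.8 and 374 CPM in the control and 481, 207 and 200.4 CPM in the OA superficial zone. In cartilage SLC43A3 stood at 361, 339 and 177 CPM in controls and 201, 204 and 187 CPM in OA joints, and it did not pass in any comparison.

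SLC13A5 (ENSOCUG00000009885), which imports citrate and whose loss impairs bone and tooth mineral in mice, read 79.4, 11.1 and 53.6 CPM in the control and 166, 10.8 and 13.4 CPM in the OA superficial zone. In cartilage SLC13A5 stood at 774, 670.5 and 537 CPM in controls and 194, 194 and 252 CPM in OA joints. Every cartilage library was above every superficial library, and every OA cartilage library was below every control cartilage library. It was higher in control cartilage (log2 fold change 3.78 ± 0.87, adjusted p = 0.0213), a call that held in 17 of 21 alternative fits and was lost without control superficial 1, 2 or 3 or control cartilage 1 (adjusted p = 0.0511 to 0.0762). In OA joints the difference was 1.33 ± 0.97 (adjusted p = 0.377), or 4.24, adjusted p = 0.015 without the libraries that stood apart, and OA against control cartilage gave -1.57 ± 0.92 (adjusted p = 0.694). SLC16A1, the lactate and pyruvate carrier MCT1, stood at 47.6, 63.4 and 28.7 CPM in control and 147, 143 and 76.5 CPM in OA cartilage, without overlap (1.25 ± 0.39, adjusted p = 0.233). The superficial libraries held 81.8, 85.3 and 62.9 CPM in controls and 57.1, 75.8 and 77.8 CPM in OA joints.

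Among carriers of other metals, SLC31A1, the copper importer CTR1, read 33.1, 23.9 and 23.1 CPM in the control and 23.6, 17.2 and 20 CPM in the OA superficial zone. In cartilage SLC31A1 stood at 97.5, 84.8 and 44.4 CPM in controls and 64.8, 56.4 and 57.4 CPM in OA joints. It was higher in control cartilage (log2 fold change 1.5 ± 0.33, adjusted p = 0.0165), with no overlap, a call that held in 17 of 21 alternative fits and was lost without control superficial 2 or 3 or control cartilage 1 or 2 (adjusted p = 0.0546 to 0.0962). In OA joints it missed the threshold at 1.48 ± 0.4 (adjusted p = 0.0512) and passed without the libraries that stood apart (1.7, adjusted p = 0.00675). SLC11A2, the iron importer DMT1, was higher in OA cartilage than in the OA superficial zone (log2 fold change 1.35 ± 0.35, adjusted p = 0.0431), at 129.9, 132 and 96.1 CPM against 47.1, 39.97 and 44.1 CPM, a call that held in 13 of 21 alternative fits and was lost without control superficial 1, 2 or 3, control cartilage 1, OA superficial 1 or OA cartilage 3 (adjusted p = 0.0611 to 0.116) and with limma-voom or with only the groups compared (0.249 to 0.253). SLC40A1, the iron exporter ferroportin and the highest of the class by TPM, was at 67.1, 59.1 and 72.5 CPM in the control and 75.9, 101 and 105 CPM in the OA superficial zone. In cartilage SLC40A1 stood at 122, 60.1 and 194 CPM in controls and 214, 211 and 209 CPM in OA joints. OA cartilage was the highest group and tight, while control cartilage ranged widely, and OA against control cartilage gave 0.75 ± 0.41 (adjusted p = 0.659).

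In the class of neurotransmitters and osmolytes, SLC6A2 passed between zones in both states and SLC6A4 in OA joints only, both at low levels. SLC6A2 (ENSOCUG00000017310), the noradrenaline carrier of sympathetic nerve endings, read 7.12, 5.96 and 5.03 CPM in the control and 5.93, 9.86 and 9.38 CPM in the OA superficial zone. In cartilage SLC6A2 stood at 1.22, 0.586 and 1.35 CPM in controls and 0.949, 1.11 and 1.36 CPM in OA joints. It was lower in cartilage in both states without overlap (-2.55 ± 0.46 and -2.72 ± 0.54, adjusted p = 0.00669 and 0.0176). The OA call of SLC6A2 held in 18 of 21 alternative fits and was lost without OA cartilage 3 (adjusted p = 0.118) and with limma-voom or with only the groups compared (0.0575 to 0.0888). SLC6A4, the serotonin carrier, was higher in OA cartilage than in the OA superficial zone (log2 fold change 2.92 ± 0.73, adjusted p = 0.0411), at 7.93, 8.69 and 2.31 CPM against 0.69, 0.992 and 0.431 CPM, a call that held in 11 of 21 alternative fits and was lost without control superficial 1, 2 or 3, control cartilage 1, OA superficial 1 or 3 or OA cartilage 3 (adjusted p = 0.0554 to 0.111) and with limma-voom, with only the groups compared or without both libraries that stand apart (0.0507 to 0.453). SLC6A6, the taurine carrier that protects cells from osmotic stress, was at 199, 260.2 and 136 CPM in the control and 204, 72.1 and 78.5 CPM in the OA superficial zone. In cartilage SLC6A6 stood at 74.3, 49.4 and 101 CPM in controls and 75.1, 77.9 and 57.5 CPM in OA joints. Its control difference of -1.41 ± 0.42 (adjusted p = 0.0693) passed without the libraries that stood apart (-1.67, adjusted p = 0.00337).

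Other genes passed between zones in a single state. SLC15A2, a peptide importer, was higher in control cartilage (log2 fold change 2.67 ± 0.68, adjusted p = 0.0343), at 1.22, 1.46 and 3.37 CPM against 0.111, 0.382 and 0.419 CPM, and SLC22A15, of the organic cation family, was higher there as well (log2 fold change 1.07 ± 0.28, adjusted p = 0.0373), at 146, 154 and 102 CPM against 77.7, 49.4 and 65 CPM. SLC45A1, a putative sugar carrier of brain, was lower in control cartilage (log2 fold change -3.72 ± 0.83, adjusted p = 0.0187), at 0, 0.586 and 1.01 CPM against 7.01, 8.48 and 6.92 CPM. The mitochondrial oxodicarboxylate carrier SLC25A21 was lower there too (log2 fold change -1.67 ± 0.46, adjusted p = 0.0498), at 5.17, 6.44 and 3.37 CPM against 11.5, 21.8 and 14.7 CPM. In OA joints SLC66A2, a carrier of little-known substrate, was lower in cartilage (log2 fold change -1.82 ± 0.45, adjusted p = 0.0391), at 17.7, 21.3 and 18.2 CPM against 97.8, 34.9 and 37 CPM. The call of SLC45A1 held in 18 of 21 alternative fits and was lost without control superficial 2 or control cartilage 1 or 2 (adjusted p = 0.0509 to 0.0663). That of SLC22A15 held in 14 of 21 alternative fits and was lost without control superficial 1, 2 or 3, control cartilage 1 or 2 or OA cartilage 3 (adjusted p = 0.0678 to 0.199) and with library totals alone (0.137), and that of SLC15A2 held in 13 of 21 alternative fits and was lost without control superficial 1, 2 or 3, control cartilage 1 or 3 or OA cartilage 3 (adjusted p = 0.0556 to 0.122) and with library totals alone or without both libraries that stand apart (0.0505 to 0.0521). SLC25A21, whose adjusted p was nearest the threshold, held in 10 of 21 alternative fits and was lost without control superficial 1, 2 or 3, control cartilage 1, 2 or 3, OA superficial 3 or OA cartilage 2 or 3 (adjusted p = 0.0507 to 0.226) and with library totals alone or with no filter (0.05004 to 0.0588). SLC66A2 held in 11 of 21 alternative fits and was lost without control superficial 1, 2 or 3, control cartilage 1, OA superficial 1 or OA cartilage 3 (adjusted p = 0.0626 to 0.217) and with library totals alone, with limma-voom, with only the groups compared or without both libraries that stand apart (0.0597 to 0.175), with a value of -0.89 without both.

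OA against control cartilage gave 2 calls, SLC25A37 and SLCO4C1, both higher. SLC25A37 (ENSOCUG00000004114), mitoferrin-1, brings iron into mitochondria and is best known from developing red blood cells. It read 81.3, 48.9 and 45.2 CPM in the control and 102, 67.6 and 65.9 CPM in the OA superficial zone. In cartilage SLC25A37 stood at 61.7, 45.4 and 67.2 CPM in controls and 611, 601 and 203 CPM in OA joints. OA cartilage was above every other library, at 404 ± 285 CPM against 58.1 ± 11.3 CPM in control cartilage (SD, n = 2 and n = 3), and within it libraries 1 and 2 were higher than library 3. SLC25A37 rose in OA cartilage (log2 fold change 2.8 ± 0.46, adjusted p = 0.0237), a call that held in 18 of 21 alternative fits and was lost without control cartilage 1 or 2 (adjusted p = 0.104 to 0.136) and with only the groups compared (0.0863). It was also higher in OA cartilage than in the OA superficial zone (log2 fold change 2.26 ± 0.53, adjusted p = 0.0313), where the call held in 16 of 21 alternative fits and was lost without control superficial 2, control cartilage 1 or OA superficial 1 (adjusted p = 0.0521 to 0.0601) and with limma-voom or with only the groups compared (0.117 to 0.266). SLCO4C1 had the same order within OA cartilage, with libraries 1 and 2 above library 3. Without the libraries that stood apart the calls remained, at 2.91, adjusted p = 0.00755 for SLC25A37 and 4.72, adjusted p = 0.0186 for SLCO4C1.

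Blood-cell markers moved in the same libraries. Of 13 erythroid markers 7 were in the table, and 6 of them rose in OA cartilage, among them ALAS2, the erythroid haem synthesis enzyme (log2 fold change 4.77 ± 0.77, adjusted p = 0.0221). Their summed level was 19.4, 16.9 and 12.8 CPM in the control superficial zone, 113, 20.02 and 19.9 in the OA superficial zone, 20.4, 12.4 and 40.9 in control cartilage and 1161, 1131 and 357 in OA cartilage. Of 11 neutrophil and marrow markers 10 were in the table and 7 rose in OA cartilage. Without MMP9, which osteoclasts also express, they summed to 583 to 1936 CPM in OA cartilage, 0.879 to 12.8 in control cartilage, 1.67 to 4.36 in the control superficial zone and 11.5 to 196 in the OA superficial zone. MMP8, the neutrophil collagenase, was at 0 in both control groups. OA superficial 1, which held more of both lists than OA superficial 2 and 3, also had the highest SLC25A37 of the superficial libraries, at 102 CPM. Control superficial 1 came next for SLC25A37, above OA superficial 2 and 3, though its summed erythroid markers were no higher than theirs. The part of blood and marrow cells in these carrier values was not tested.

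**Figure D5:**
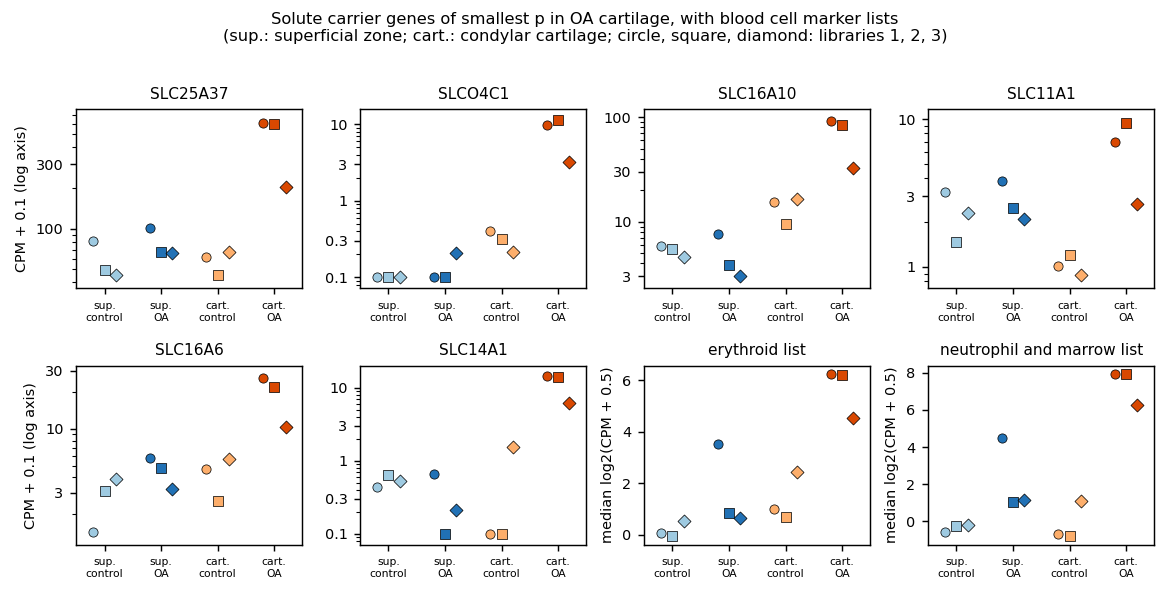
CPM of 6 carriers in the 12 libraries (log axis, CPM + 0.1), beside the median log2(CPM + 0.5) of the erythroid and the neutrophil and marrow marker lists. In all panels OA cartilage libraries 1 and 2 are the highest of the 12, and in every panel but that of SLC11A1 all 3 OA cartilage libraries are above all others.

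The carriers next in line by p in OA cartilage did not pass. SLC16A10 was described among the amino acid carriers. SLC11A1, an iron and manganese carrier of phagocyte vacuoles, stood at 3.12, 1.38 and 2.2 CPM in the control and 3.73, 2.39 and 1.99 CPM in the OA superficial zone. In cartilage SLC11A1 stood at 0.912, 1.1 and 0.785 CPM in controls and 6.87, 9.3 and 2.58 CPM in OA joints (OA against control cartilage 2.5 ± 0.61, adjusted p = 0.0991). SLC16A6, a monocarboxylate carrier that exports ketone bodies in zebrafish liver, read 1.34, 2.98 and 3.77 CPM in the control and 5.66, 4.73 and 3.13 CPM in the OA superficial zone. In cartilage SLC16A6 stood at 4.56, 2.49 and 5.61 CPM in controls and 25.8, 22 and 10.3 CPM in OA joints (OA against control cartilage 2.03 ± 0.53, adjusted p = 0.131, and 2.32, adjusted p = 0.0385 without the libraries that stood apart). SLC14A1, the urea carrier that bears the Kidd blood group in people, was at 0.334, 0.535 and 0.419 CPM in the control and 0.552, 0 and 0.108 CPM in the OA superficial zone. In cartilage SLC14A1 stood at 0, 0 and 1.46 CPM in controls and 14.1, 13.7 and 6.03 CPM in OA joints (OA against control cartilage 4.36 ± 1.21, adjusted p = 0.162). SLC14A1 passed without the libraries that stood apart (adjusted p = 0.0012), and both remaining control cartilage libraries had a count of 0, so that the fitted fold is no bound and is not given. In each the OA cartilage libraries exceeded the control cartilage libraries, and for SLC11A1 OA cartilage 3 overlapped the superficial libraries. With the 12 libraries entered separately, 9 genes passed (8 higher, 1 lower, beside 3.03% of all genes), and with DESeq2 7 passed (6 higher, 1 lower, beside 2.43%), both including SLC16A10, SLC11A1, SLC16A6, SLC14A1 and, as the lower gene, SLCO2A1. Without the libraries that stood apart, 7 higher and 8 lower genes passed, beside 4.57% of all genes. The 7 higher ones included SLC16A10, SLC16A6 and SLC14A1, and the 8 lower ones included SLC2A1, SLC1A5, SLC16A3, SLC10A7 and the vitamin carrier SLC5A6. Among libraries that did not overlap, 29 carriers were higher in OA cartilage (15%, beside 15.1% of all genes) and 46 lower (23.8%, beside 14.7%). All 9 tested nucleoside and vitamin carriers had negative values in OA against control cartilage, up to -0.06, with a median of -0.40 and 0 called. Over all 193 carriers 120 were negative, with a median of -0.18. These signs depend on scaling: library totals alone moved the median of all genes from -0.03 to 0.23 in this comparison.

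In the superficial zone, OA against control gave 0 calls with edgeR, with the 12 libraries entered separately (beside 1.12% of all genes), with DESeq2 (1.99%) and with limma-voom. Of the 193 genes, 13 had an unadjusted p under 0.05, 7 higher and 6 lower. The genes of smallest p whose groups did not overlap were SLC6A7, SLC7A8, SLC10A7, SLC30A5 and SLC43A2. SLC6A7, a proline carrier of brain, read 0.223, 0.153 and 0.21 CPM in the control and 4.42, 1.93 and 1.67 CPM in the OA superficial zone. In cartilage SLC6A7 stood at 0, 0.146 and 1.46 CPM in controls and 0.558, 0.609 and 0.203 CPM in OA joints. Its superficial difference between OA and control was 3.93 ± 1.16 (adjusted p = 0.247). SLC7A8, the neutral amino acid exchanger LAT2, stood at 23.8, 16.5 and 20.03 CPM in the control and 41.8, 34.4 and 35.4 CPM in the OA superficial zone. In cartilage SLC7A8 stood at 31.3, 38.5 and 31.5 CPM in controls and 21.9, 22.9 and 18.4 CPM in OA joints. It read higher in all OA than in all control superficial libraries (0.93 ± 0.29, adjusted p = 0.275) and lower in all OA than in all control cartilage libraries. SLC43A2, a further neutral amino acid carrier, was at 81.4, 62.3 and 41.6 CPM in control and 223, 88.4 and 88.7 CPM in OA superficial zone (1.33 ± 0.47, adjusted p = 0.338). SLC10A7, whose loss causes a skeletal dysplasia with altered proteoglycans in people, read 56.1, 32.3 and 42.6 CPM in the control and 8.83, 22.8 and 24 CPM in the OA superficial zone. In cartilage SLC10A7 stood at 93.5, 96.8 and 45.4 CPM in controls and 34.7, 35.8 and 39.3 CPM in OA joints. Its superficial difference between OA and control was -1.42 ± 0.48 (adjusted p = 0.32). Non-overlapping carriers numbered 18 higher (9.33%, beside 10.1% of all genes) and 16 lower (8.29%, beside 7.69%). Without the libraries that stood apart, SLC2A4 was higher (2.9, adjusted p = 0.0243) and the glycine carrier SLC6A9 and the glutamine carrier SLC38A3 were lower in the OA superficial zone, each resting on 1 OA sample and beside 1.95% of all genes.

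The effect of OA was not shown to differ between the zones for any solute carrier with all samples, 0 of 193 passing beside 0.0% of all genes, with 22 at an unadjusted p under 0.05 (8.76% of all genes, 11.4% of carriers). DESeq2 (beside 0.734% of all genes) and limma-voom gave 0 as well. SLC7A8 came first at -1.66 ± 0.42 (adjusted p = 0.312), the sign being that of the effect in cartilage minus the effect in the superficial zone, and it passed when the 12 libraries were entered separately (-1.57, adjusted p = 0.0463, beside 0.674% of all genes). Without the libraries that stood apart SLC14A1 was the 1 carrier that passed (adjusted p = 0.0356, beside 0.664% of all genes), with the control cartilage group then at 0 counts. SLC25A37 (2.27 ± 0.66, adjusted p = 0.415), SLC16A10 (2.14 ± 0.68, adjusted p = 0.457) and SLCO2A1 (-1.57 ± 0.51, adjusted p = 0.457) followed. Among control zones 43 carriers were higher in cartilage without overlap (22.3%, beside 12.6% of all genes) and 35 lower (18.1%, beside 15.8%), and among OA zones 49 were higher (25.4%, beside 23%) and 44 lower (22.8%, beside 23.8%).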

How the data were processed

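Rabbit temporomandibular joint RNA was extracted with RNeasy Micro, depleted of rRNA and made into directional libraries, per the labels' protocols. The submitters' processing notes list, with the build OryCun2.0 and without their roles, DESeq2 1.26.0, MultiQC 1.13, Salmon 1.1.0, STAR 2.7.9a, StringTie 2.1.0 and Trim Galore 0.6.7. Whether counting used strand is not given in the sources used here. The deposited table holds estimated counts per gene, whole numbers that the file headers call both normalised and raw. Their unequal totals are those of raw counts, and they were used as such. The deposited TPM values, corrected for feature length by the authors and including rRNA, served only to order genes within a group. Near-duplicate libraries were summed, giving 10 samples from 12 libraries. edgeR 4.0.16 (R 4.3.3) fitted 1 quasi-likelihood model over the 4 groups, with TMM factors, filterByExpr at a minimum count of 10 and Benjamini-Hochberg adjustment over 14438 genes. SE is the log2 fold change over the root of F. The fit was also run on simulated counts, for OA against control in the superficial zone only and without libraries that stood apart. That run cannot speak for the zone comparisons. CPM is scaled by TMM per library, and in means ± SD a near-duplicate pair counts as 1. Intervals on ratios of counts cover counting error only. Alternatives were DESeq2 1.42.0, limma 3.58.1 (voom), other scalings, filters and designs, and leaving out libraries. The labels do not say whether replicate numbers pair samples. Deviations from the group means correlated at -0.299 to 0.327 in same-numbered pairs, with 7 of 18 above 0.1. This cannot settle pairing, since each group held 3 libraries, with near-duplicates among those of OA. The genes, lists and tests were chosen with earlier results of these data known. Genes named in the text are a fixed panel, the members past the test (1 is not reported here) or of smallest p, the 3 highest by TPM in a class, and list genes past the test. SLC2A3, SLC2A5, SLC1A4, SLC7A5, SLC7A11, SLC34A2, SLC26A1, SLC35B2 and SLC30A10 of that panel were not analysed here. Other genes were chosen after their values were seen.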

Additional observations from a re-analysis of the deposited data

How the results depend on the processing

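Counts of solute carriers past the test moved with the design more than with scaling. Percentages in brackets are the shares of all genes in the same fit. For OA against control cartilage (2 genes) the count was 9 (3.03%) with 12 separate libraries, 7 (2.43%) with DESeq2, 28 (10.7%) with limma-voom, 0 (0.0%) with only the groups compared, 15 (4.57%) without both libraries that stood apart, and 0 to 4 when single libraries were left out. For the superficial zone (0) it was 3 (1.95%) without both, and for the difference between zones (0) it was 1 (0.664%) without both and 1 (0.674%) with 12 separate libraries; the design with only the groups compared gives no value for it. Between control zones (20) it was 36 (10.9%) with DESeq2, 68 (23.7%) with limma-voom, 36 (12.4%) with only the groups compared, 54 (16.8%) without both, and 6 (3.4%) to 42 (12.4%) with single libraries left out. Between OA zones (15) it was 45 (19.8%) with 12 separate libraries, 32 (14.6%) with DESeq2, 1 (0.928%) with limma-voom, 0 (0.0%) with only the groups compared, 34 (12%) without both, and 3 (0.714%) to 24 (9.71%) with single libraries left out. A replicate block over 12 separate libraries gave 6 (2.23%) in OA cartilage, 27 (8.98%) between control zones and 41 (16.8%) between OA zones. Whether the replicate numbers pair samples is not known. Separate libraries count near-duplicates as samples; the other causes were not tested. Of 1904 alternative values for 91 named folds, 1607 kept direction and side of the threshold, 183 no longer passed, 109 newly passed and 5 reversed. These were SLC2A4 between control zones (-1.65 with limma-voom, -2.70 without control cartilage 3, -2.70 without both, and -2.70 to 2.18 without single libraries) and SLC2A1 between OA zones (0.18 without OA superficial 1, 0.22 without both, and -1.01 to 0.18 without single libraries). With 2 samples per OA group, small differences may go undetected.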
